A study of Rattus norvegicus with 6 samples.

Results

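Lgr receptors, R-spondins and the ligases they control were examined in rat primary motor neuron cultures after short exposure to camptothecin. The set holds 9 genes named by family: the receptors Lgr4, Lgr5 and Lgr6, the ligands Rspo1 to Rspo4, and the ubiquitin ligases Znrf3 and Rnf43. A gene counted as measured where a transcript cluster of the array carried its symbol alone, and its brightest cluster, averaged over the 6 arrays, stood for it. On that rule 6 of the 9 were measured, each by 1 cluster, of 14506 genes measured in all. Lgr6, Rspo4 and Znrf3 were not measured. The family was taken up because Lgr5 was already known to lie among the largest falls of this same contrast, so the members' values are given as a description and no test of them is offered.

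R-spondins are secreted proteins that strengthen Wnt signalling. Without them, Znrf3 and Rnf43 sit in the cell membrane and mark Frizzled Wnt receptors for removal. An R-spondin bridges an Lgr receptor and one of these ligases, the ligase is cleared from the surface, and more Frizzled and Lrp6 coreceptor stays there. Lgr5 is best known as a marker of stem cells in the gut and other epithelia, and in the developing spinal cord R-spondins are known as products of the dorsal midline.

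The cultures came from embryonic day 13.5 rats and were kept for 2 days in vitro. One group received 1 microM camptothecin for 2 h, the other an equal volume of DMSO, the solvent, and each had 3 arrays. Camptothecin traps topoisomerase 1 on DNA. The labels call the samples of a group biological replicates without saying whether they came from separate cultures, so errors and p-values reflect only sample-to-sample spread, which may be technical. All values are deposited log2 expression values of Affymetrix Rat Gene 1.0 ST arrays, and changes are camptothecin minus DMSO on the log2 scale with the standard error (SE) of limma's fit. "Rose" and "fell" are used of genes past an adjusted p of 0.05 in that fit over all 29214 clusters.

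Array medians were 6.31 to 6.33 with camptothecin and 6.22 to 6.28 with DMSO. Top1, the gene of the drug's target, changed by -0.64 (SE 0.08, adjusted p = 0.00254). The labels call the cells motor neurons. Of 9 measured motor neuron markers 5 were dim, meaning below the median of all cluster means (6.28). These were Isl1, Isl2, Slc18a3, Slc5a7 and Prph. Lhx3, Nefh, Nefm and Ret were not dim, and Mnx1 and Chat, also listed, were not measured. Of 9 spinal interneuron markers 1 was dim. Levels of different genes are not comparable, so these counts do not give the share of either cell type. In bulk RNA, fewer cells of a type and less RNA per cell cannot be told apart.

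Both measured receptors were lower after camptothecin, and the 3 measured R-spondins and Rnf43 did not pass the threshold. Lgr5 stood at 23.8% of its DMSO level and Lgr4 at 54.3%. Over the members, 2 of 6 fell and 0 rose (at an unadjusted p under 0.05 the counts were also 2 and 0), beside 9.35% of all genes that fell and 11.3% that rose. The median change of the 6 was -0.22, beside 0.06 for all 14506 genes. Because the family was chosen on this contrast, nothing is read from these counts.

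Lgr5, the R-spondin receptor that marks epithelial stem cells, read 8.51, 8.48 and 8.44 on the DMSO arrays. On the camptothecin arrays it read 6.43, 6.37 and 6.42. All 3 camptothecin values lay near their arrays' medians, and the groups were apart by 2.01 at their closest. The means were 8.48 ± 0.04 and 6.41 ± 0.03 (SD, n = 3 each), a change of -2.07 (SE 0.06), or 4.2-fold lower. The pooled SD of Lgr5 within treatments was 0.03, smaller than in all but 3.61% of genes. Lgr5 ranked 3 among the 14506 genes, counted from the largest fall.

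Lgr4, the more widely expressed receptor of the family, read 8.37, 8.25 and 8.31 with DMSO. With camptothecin it read 7.51, 7.38 and 7.4. The groups did not overlap and were 0.74 apart at their closest. The change was -0.88 (SE 0.07), or 1.84-fold lower, and it ranked 230 among all genes from the largest fall. Groups did not overlap for 2 of the 6 members, the receptors, against 42.6% of all genes in either direction.

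**Figure D1:**
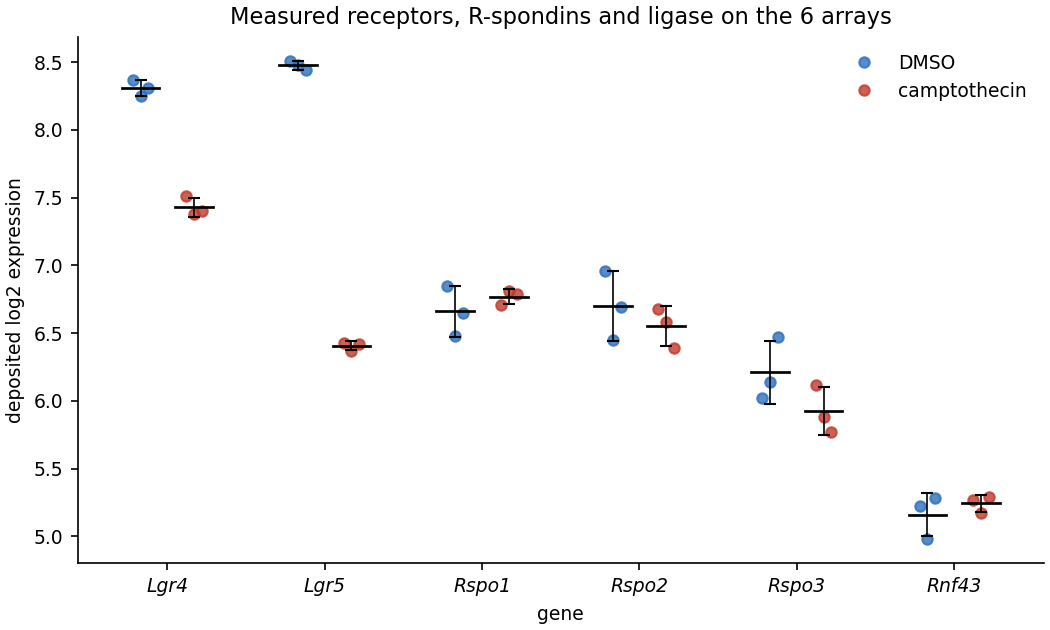
Deposited log2 expression (vertical axis) of the 6 measured members (horizontal axis) on each of the 3 DMSO (blue) and 3 camptothecin (red) arrays; black lines are means and bars SD. Lgr5 and Lgr4 separate by treatment, with gaps of 2.01 and 0.74, while the groups overlap for Rspo1, Rspo2, Rspo3 and Rnf43. Levels of different genes are not comparable, since each cluster has its own probes.

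Rspo1, the first of the ligands, read 6.85, 6.48 and 6.65 with DMSO and 6.71, 6.81 and 6.79 with camptothecin. The camptothecin values lay inside the DMSO range, and the change was 0.11 (SE 0.10). Rspo2 read 6.96, 6.45 and 6.69 with DMSO and 6.68, 6.58 and 6.39 with camptothecin, a change of -0.15 (SE 0.14). Rspo3, a ligand known for roles in blood vessels and stem cell niches, read 6.02, 6.14 and 6.47 with DMSO and 6.12, 5.88 and 5.77 with camptothecin. Its change was -0.28 (SE 0.14), and camptothecin replicates 2 and 3 lay below every DMSO array while camptothecin replicate 1 did not. Rspo2 and Rspo3 each had a pooled SD of 0.21, above that of about 92% of genes, so their changes are measured less closely than those of the receptors. For Rspo2 the value was -0.28 to -0.02 with 1 array left out, and for Rspo3 it was -0.38 to -0.15.

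Rnf43, the measured ligase, read 5.22, 4.98 and 5.28 with DMSO and 5.27, 5.17 and 5.29 with camptothecin, a change of 0.08 (SE 0.09). Rnf43 (mean 5.2) and Rspo3 (mean 6.07) were dim, and a change in a dim cluster is easily understated. A change that missed the threshold does not show that the level stayed the same.

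The sign for 2 of these genes depended on the scale of the arrays. With arrays centred on ribosomal protein genes instead (ribosomal centring), which moved the median change of all clusters by -0.25, Rspo1 read -0.14 and Rnf43 -0.16. Rspo3 passed the threshold there, at -0.53. On that scale 7375 of all 29214 clusters were lower past the threshold and 659 higher. Lgr5 and Lgr4 were lower past the threshold under all 17 alternatives, at -2.32 to -2.05 and -1.13 to -0.85.

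The promoters of the members differed in base composition. RefSeq windows of 300 bases around the annotated start were found for Lgr4, Rspo1, Rspo3 and Rnf43 among the measured members, and for Lgr6. Those of Lgr4 and Rspo1 are shown because they stand for a gene that fell and one that did not pass: the 250 bases before the start in GRCr8 on the plus strand, 5′ to 3′, with CpG dinucleotides in capitals. The Lgr4 stretch is chr3:116901718-116901967 and the Rspo1 stretch is chr5:142536040-142536289.
Lgr4: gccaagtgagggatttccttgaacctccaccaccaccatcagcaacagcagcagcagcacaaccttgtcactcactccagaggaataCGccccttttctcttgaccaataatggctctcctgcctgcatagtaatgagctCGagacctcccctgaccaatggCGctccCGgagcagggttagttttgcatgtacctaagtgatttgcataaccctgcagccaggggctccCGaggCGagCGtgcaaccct
Rspo1: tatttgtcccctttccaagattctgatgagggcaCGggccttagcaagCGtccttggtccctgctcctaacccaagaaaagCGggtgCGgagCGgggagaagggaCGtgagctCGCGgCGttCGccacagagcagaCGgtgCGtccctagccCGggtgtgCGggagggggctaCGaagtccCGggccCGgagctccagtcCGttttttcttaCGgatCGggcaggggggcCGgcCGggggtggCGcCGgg

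The Lgr4 stretch held 7 CpG dinucleotides and 55.2% G and C, and the Rspo1 stretch 24 and 66.4%. The medians over 33469 RefSeq stretches were 5 and 51.2%. Rspo3 held 16 CpG, Lgr6 held 8 and Rnf43 held 4. Each 300-base window was searched for TCF/LEF motifs (CTTTGAA or its variant CTTTGAT, and also CTTTGTA or its variant CTTTGTT, both strands), the TATA box (TATAAA, gene strand) and AP-1 motifs (TGACTCA or its variant TGAGTCA, both strands). None of the 5 members' windows held a match to any of them, against 17.1%, 8.8% and 4.63% of all windows. That says only that these letters are not in these windows.

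Annotated gene span did not itself enter the choice of members. That choice rested on a fall of Lgr5, however, and in these data longer genes fell more often, so it is not independent of span. Lgr5 spans 135 kb in GRCr8, Lgr4 103 kb, Rspo2 137 kb, Rspo3 84.7 kb, Rnf43 75.8 kb and Rspo1 21.4 kb. Of the 1257 genes of 100 to 300 kb, 33.3% fell, and their median change was -0.12. Lgr5 ranked 3 from the largest fall among those genes, a place near the top that its choice already implied. Of those genes 9.39% had a lower change than Lgr4. Rspo2, slightly longer than Lgr5, lay near the middle, with 46.1% of the genes of that span below it. In the range of 30 to 100 kb, 16.2% of genes fell, and 17% lay below Rspo3 and 67.1% below Rnf43. Rspo1 was at the middle of genes of 10 to 30 kb, with 49.8% below it. Similar spans went with changes of -2.07 in Lgr5 and -0.15 in Rspo2. With DMSO, Rspo2 read 6.45 to 6.96, near the median of all cluster means (6.28), and Lgr5 8.44 to 8.51. Neither the part of this starting level nor that of span in either change was tested.

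**Figure D2:**
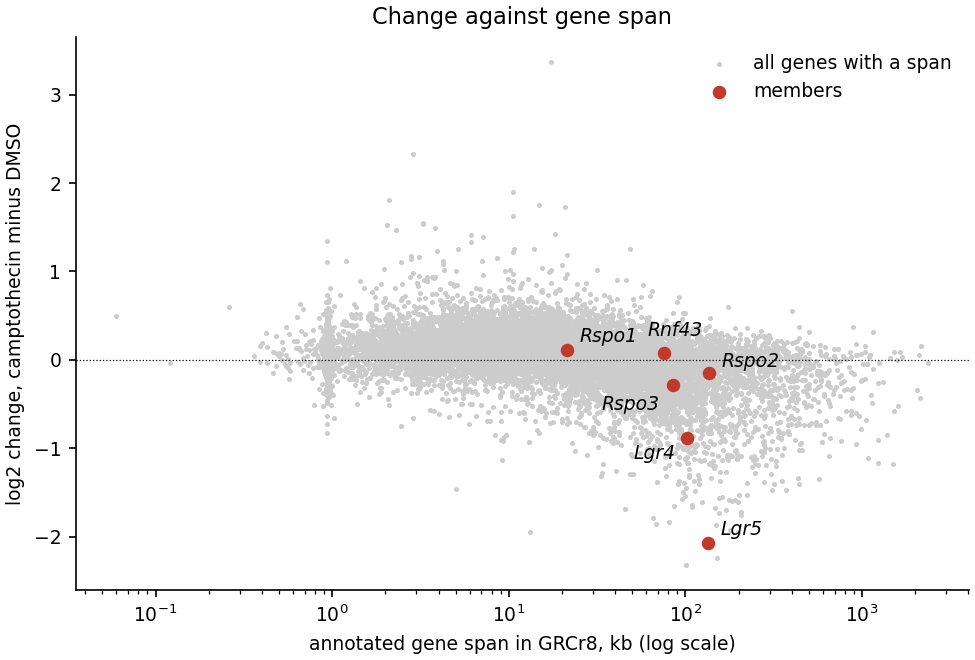
Log2 change, camptothecin minus DMSO (vertical axis), against annotated gene span in kb on a log axis (horizontal), for all genes with a span (grey) and the 6 members (red). Lgr5 (135 kb, -2.07) lies at the lower edge of the cloud, Lgr4 (103 kb, -0.88) within its lower part and Rspo2 (137 kb, -0.15) near its middle.

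The genes with a pattern most like that of Lgr5 were found from the 6 values of each gene minus its DMSO mean, as the smallest root mean square difference from Lgr5. The nearest were Hivep2 (0.11), a zinc finger factor, Ano6 (0.14), a calcium-activated phospholipid scramblase, Htr2a (0.18), a serotonin receptor, Pdzrn4 (0.18), a PDZ and RING finger protein, and Serpinb2 (0.20), a serine protease inhibitor. Their changes ran from -1.95 to -1.85. Hivep2, the nearest, read 9.94, 9.9 and 10.03 with DMSO and 8.08, 7.94 and 7.99 with camptothecin. Lgr4 came at rank 226 by this measure, with a difference of 0.84. The measure rests on 6 arrays in 2 groups and mostly follows the size of the change.

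**Figure D3:**
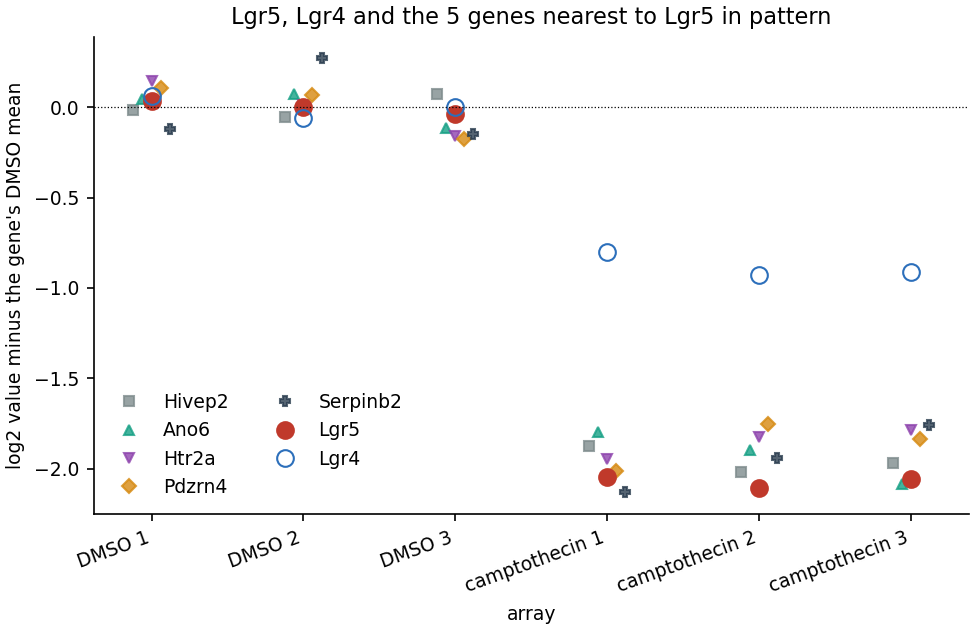
Log2 value minus the gene's DMSO mean (vertical axis) on each of the 6 arrays (horizontal axis) for Lgr5 (filled red), Lgr4 (open blue) and the 5 genes nearest to Lgr5. The nearest genes stay within 0.20 of Lgr5 in root mean square terms, while Lgr4 lies between them and 0 on the camptothecin arrays.

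Markers of other cells the cultures could hold were read beside the receptors. Over all genes, 9.35% fell and 11.3% rose. Of 9 spinal interneuron markers 5 fell and 0 rose (1 rose at an unadjusted p under 0.05), with Slc6a5, Gad2, Slc17a6, Gad1 and Pax2 the 5. The mean level of that list was 8.37 to 8.46 on the DMSO arrays and 7.94 to 8.09 on the camptothecin arrays. That mean was lower, as Lgr5 and Lgr4 were, but the genes of the list did not all change in 1 direction. The 5 that fell span 40.1 kb (Slc17a6) to 91.2 kb (Pax2), and the other measured markers of the list 4.47 kb (Slc32a1) to 31.4 kb (Gata3). Neither the part of these cells nor that of span in the receptors' values was tested. The other measured interneuron markers did not pass, and their changes were positive. Slc32a1, the vesicular transporter of inhibitory neurons, had a change of 0.23, Lhx5 0.26, Lhx1 0.1 and Gata3 0.09. Of 8 roof plate and dorsal progenitor markers 1 fell (Lmx1a, -0.30), and the list's mean level was 5.87 to 5.9 with DMSO and 5.94 to 5.99 with camptothecin. Floor plate and ventral progenitor markers had 0 calls by limma in 8 members (2 rises and 0 falls at an unadjusted p under 0.05), and their mean levels overlapped at 7.7 to 7.77 and 7.68 to 7.91. Astroglial and oligodendrocyte markers had 1 fall and 0 rises in 7, skeletal muscle and somite markers 1 fall and 1 rise in 6. By limma, fibroblast markers had 0 calls in 6 (0 also at an unadjusted p under 0.05), and endothelial, blood and microglial markers 0 in 9 (3 rises and 0 falls at an unadjusted p under 0.05). Motor neuron markers had 3 rises and 0 falls in 9 measured genes (3 and 2 at an unadjusted p under 0.05). The rises were the neurofilament genes Nefh (9.99 kb) and Nefm (5.3 kb) and the filament gene Prph (4.18 kb).

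Outside the members, 136 of 157 listed genes around the pathway were measured, and 25 fell and 14 rose. Of all genes 9.35% fell and 11.3% rose, and these shares stand beside each list. The lists were compiled with earlier results of these data known. Their median change was 0.06, equal to that of all genes. With arrays centred on their median the counts were 27 and 8, and with ribosomal centring 49 and 3. Of all 29214 clusters, median centring gave 2743 lower and 1627 higher, and ribosomal centring 7375 and 659. Counts of single lists under these settings stand beside those totals. Leaving out single arrays gave 14 to 20 that fell and 6 to 14 that rose, with the fewest falls (14) without DMSO replicate 1 or 2, then 15 without DMSO replicate 3. The fewest rises were 6 without DMSO replicate 3, 7 without DMSO replicate 1 and 8 without DMSO replicate 2 or camptothecin replicate 3.

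The list of Wnt ligands and Norrin, which bind Frizzled receptors, also holds Porcn and Wls, which acylate and transport Wnt proteins, and Notum, which deacylates them. By limma it had 0 calls in 21 measured genes (0 falls at an unadjusted p under 0.05 and 1 rise, Porcn, 0.29), and 1 rise without camptothecin replicate 1 or 2. With ribosomal centring 5 of the 21 were lower and 0 higher, beside 7375 lower and 659 higher of all 29214 clusters. The largest change was that of Wnt2b (0.32, SE 0.20, adjusted p = 0.319), and 11 of the 21 were dim. The groups overlapped for most of them.

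Among 16 Wnt receptors and coreceptors 3 fell and 2 rose, beside 9.35% and 11.3% of all genes. With arrays centred on their median 5 were lower and 2 higher, and with ribosomal centring 8 and 0. Lrp6, the coreceptor that Znrf3 and Rnf43 also keep down, read 10.36, 10.37 and 10.34 with DMSO. It read 9.55, 9.49 and 9.55 with camptothecin, a change of -0.83 (SE 0.06, limma adjusted p = 0.000275). Its groups did not overlap, and its span of 134 kb is close to that of Lgr5. Ryk, a Wnt-binding receptor with a kinase-like domain, changed by -0.52 (SE 0.07), and Tspan12, a tetraspanin of the Norrin receptor complex, by -0.27. The Frizzled receptors went the other way or did not pass. Fzd4 rose by 0.53 (SE 0.09, limma adjusted p = 0.0078) and Fzd1 by 0.43 (SE 0.07), both from genes under 10 kb, and both lost the call with ribosomal centring (0.28 and 0.19). Lrp5, the relative of Lrp6, was dim and had a change of -0.10.

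Inside the cell, 7 of 22 relay and destruction complex genes fell and 1 rose, beside 9.35% and 11.3% of all genes. The falls numbered 2 without DMSO replicate 2, 3 without DMSO replicate 1 or 3, and 4 without camptothecin replicate 1 or 3. With ribosomal centring 11 were lower and 1 higher. Csnk1g3, a casein kinase 1 of the membrane that phosphorylates Lrp6, changed by -1.06 (SE 0.08, limma adjusted p = 0.000323). Btrc and Fbxw11, the F-box proteins that direct beta-catenin to the proteasome, changed by -0.81 (SE 0.07) and -0.44 (SE 0.08). Fbxw11 lost the call without DMSO replicate 2 (-0.41) or DMSO replicate 3 (-0.43). Dvl3, a Dishevelled relay protein, rose by 0.54 (SE 0.09). Ctnnb1, which encodes beta-catenin, had a change of 0.06 and did not pass.

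Of 13 TCF/LEF factors and nuclear partners 6 fell and 2 rose, beside 9.35% and 11.3% of all genes. Their median change was -0.23. The counts were 6 and 1 with arrays centred on their median, and 7 and 1 with ribosomal centring. The acetyltransferases Ep300 and Crebbp changed by -0.93 (SE 0.08) and -0.70 (SE 0.07), and the Groucho-type corepressor Tle4 by -0.76 (SE 0.09). Pygo2, a beta-catenin coactivator, rose by 0.73 (SE 0.08, limma adjusted p = 0.00129). Ep300, Crebbp, Tle4 and Pygo2 kept their calls in all 17 alternatives. The falls in the list numbered 3 without DMSO replicate 2, and the rises 1 whichever of the 6 arrays was left out.

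Of 19 measured genes outside the members that beta-catenin is known to activate, 2 fell and 3 rose, beside 9.35% and 11.3% of all genes. Only 1 rose without DMSO replicate 1 or 3. With ribosomal centring 5 were lower and 1 higher. Fgf9, a growth factor, changed by -0.62 (SE 0.09) and the transcription factor Prox1 by -0.53 (SE 0.10). Id2, an inhibitor of helix-loop-helix factors, rose by 0.45 (SE 0.06), and Bambi, a decoy receptor for BMP signals, by 0.47 (SE 0.09). Bambi lost the call without DMSO replicate 1 (0.42) or DMSO replicate 3 (0.47), and with ribosomal centring (0.23). Ccnd1, a cyclin gene, also rose, by 0.44 (SE 0.09, limma adjusted p = 0.0181). With ribosomal centring the 1 higher gene was Id2. Axin2, the most widely used readout of the pathway, did not pass, with a change of 0.12.

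**Figure D4:**
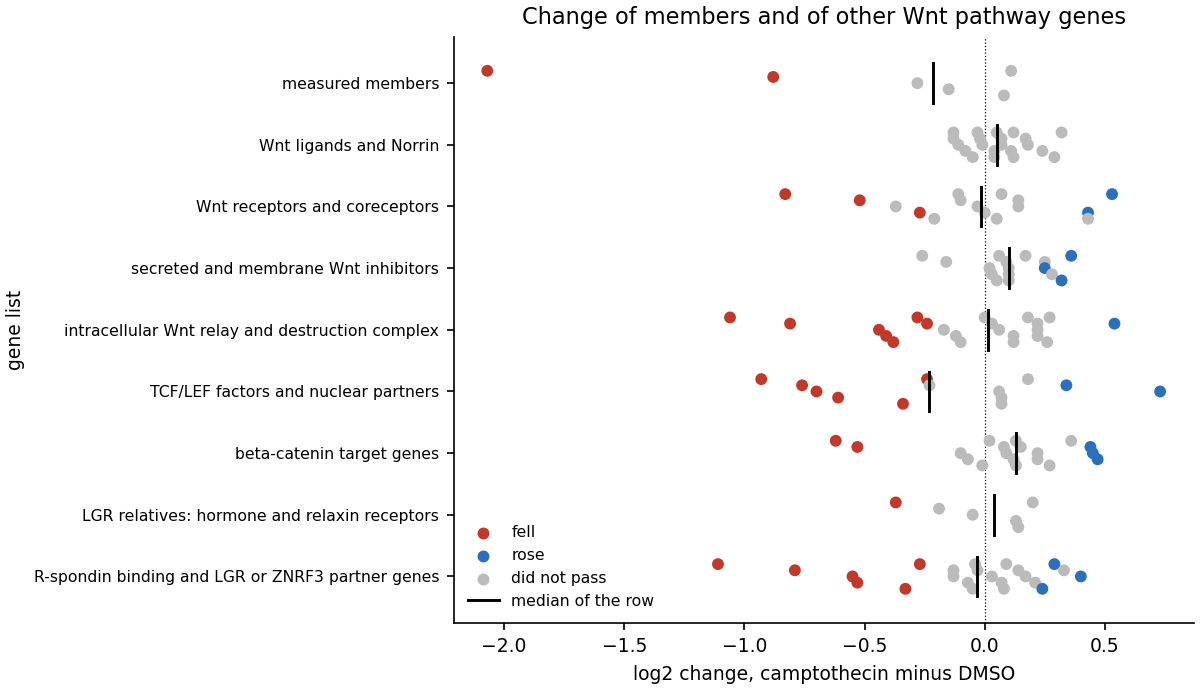
Log2 change, camptothecin minus DMSO (horizontal axis), of each measured gene in the members and in 8 lists (rows); red points fell, blue points rose, grey points did not pass, and black lines are medians. Lgr5 (-2.07) lies to the left of every other gene drawn. The row of Wnt ligands and Norrin holds no called gene on the deposited scale. With ribosomal centring 5 genes of that row were lower, beside 7375 of all 29214 clusters.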

How the data were processed

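RNA of 6 samples from rat motor neuron cultures was hybridised to Affymetrix Rat Gene 1.0 ST arrays, 3 per treatment. The authors deposited 1 log2 expression value for each transcript cluster on each array. RMA and oligo appear in the submitters' processing notes; their versions, the annotation and the build were not given in the sources used here. Symbols came from the platform annotation, only from the 15310 of 29214 clusters with 1 symbol, and spans from RefSeq's GRCr8. The values were tested as deposited with limma 3.58.1 (R 4.3.3; lmFit and eBayes, two-sided, Benjamini-Hochberg over all clusters, threshold 0.05). In simulated data with 200 changed clusters, the test called 98.5% of those changed by a log2 value of 2. It called 81.5% of those changed by 1 and 0% of those changed by 0.5. In the data 1356 genes fell and 1643 rose, so the adjusted p cutoff was less strict there and smaller changes passed. The simulated rates therefore do not give the sensitivity of the real fit.

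The members and lists were chosen with earlier results of these data known. Named genes are the members, the largest changes among each list's called genes, at most 4 (where none passed, the single largest change), the 5 genes nearest to Lgr5, and Top1; other genes were named after their values were seen. Alternatives covered scaling, filters, replicate block, weights, thresholds and single arrays left out. The number of arrays limits the precision.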

Additional observations from a re-analysis of the deposited data

How the results depend on the processing

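Lgr5 and Lgr4 stayed lower past the threshold in all 17 alternatives, and the count of members that fell was 2 in 16 of them and 3 with ribosomal centring, where Rspo3 was added. No member rose in any. For pathway genes outside the members the main counts were 25 lower and 14 higher. Lower counts were 49 with ribosomal centring, 11 at a threshold of 0.01 and 8 with treat against a 1.2-fold change. Higher counts were 8 with arrays centred on their median, 3 with ribosomal centring, 24 without dim clusters, 5 at 0.01 and 1 with treat. With 1 array left out they were 14 to 20 lower and 6 to 14 higher. Fewer clusters are tested without the dim ones and fewer arrays with 1 left out. A threshold of 0.01 and treat are stricter by design. Centring moved the median change of all clusters by -0.07 (array medians) and -0.25 (ribosomal centring). What lay behind any other move was not tested. Deviations of same-numbered arrays correlated at -0.0844, 0.0222 and 0.0845, and those of differently numbered arrays at -0.164 to 0.146. Same-numbered arrays were thus no more alike, though this cannot show whether the design paired them. With the replicate block 17 pathway genes were lower and 7 higher, and the counts of members were unchanged. Dim clusters, among them Rspo3 and Rnf43, are limited by signal over background.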

Other observations

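Of 16 secreted and membrane-bound Wnt inhibitors 3 rose and 0 fell by limma on the deposited scale (5 and 0 at an unadjusted p under 0.05). Over all genes 11.3% rose and 9.35% fell. With arrays centred on their median 1 was higher and 0 lower, and with ribosomal centring 0 and 1. Sfrp2, a secreted decoy for Wnt ligands, rose by 0.36 (SE 0.07, limma adjusted p = 0.0132), Wif1, another Wnt-binding inhibitor, by 0.32 (SE 0.09) and Tpbg, a membrane inhibitor of the pathway, by 0.25 (SE 0.07). These are small changes. Sfrp2 lost the call without DMSO replicate 2 (0.36). Wif1 lost it without DMSO replicate 2 (0.29) or 3 (0.28), or without camptothecin replicate 1 (0.28), 2 (0.33) or 3 (0.36). Tpbg lost it without DMSO replicate 1 (0.27), 2 (0.25) or 3 (0.24), or without camptothecin replicate 2 (0.23) or 3 (0.23). With ribosomal centring the values of Sfrp2, Wif1 and Tpbg were 0.12, 0.08 and 0.01, and all lost the call; Wif1 (0.26) and Tpbg (0.19) also lost it with arrays centred on their median.

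Among genes for R-spondin binding and for partners or relatives of the receptors and ligases, 6 of 23 fell and 3 rose. The shares over all genes were 9.35% and 11.3%. Without DMSO replicate 1 the falls numbered 3, and the rises were 0 whichever DMSO array was left out and 1 without camptothecin replicate 2 or 3. With arrays centred on their median 6 were lower and 0 higher, and with ribosomal centring 11 and 0. Smurf2 and Smurf1, ubiquitin ligases of the TGF-beta and BMP pathways, changed by -1.11 (SE 0.09, limma adjusted p = 0.000521) and -0.79 (SE 0.16), and Smurf1 lost the call without DMSO replicate 1 (-0.72). Rnf149 and Rnf130, membrane RING ligases with the same protease-associated domain type as Rnf43, changed by -0.55 (SE 0.07) and -0.53 (SE 0.06). Nedd4 and Nedd4l, cytosolic ligases, did not pass (0.14 and -0.05). Of 6 measured hormone and relaxin receptors 1 fell and 0 rose (the same counts at an unadjusted p under 0.05). That was Rxfp3, a relaxin family receptor without the leucine-rich ectodomain of the Lgr receptors (-0.37, SE 0.10). It was dim and lost the call in 5 of the 6 fits with 1 array left out: without DMSO replicate 1 (-0.41), 2 (-0.39) or 3 (-0.31), or camptothecin replicate 1 (-0.37) or 2 (-0.29).

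The spans of the called pathway genes differed by direction. The 25 that fell had a median span of 87 kb (1.43 to 499) and the 14 that rose 9.28 kb (1.83 to 70.5), and those that did not pass 27.8 kb. Of 26 pathway genes of 100 kb or more, 10 fell and 0 rose, beside 34.9% and 1.84% of all genes of that length. Of 48 from 30 to 100 kb, 13 fell and 4 rose, beside 16.2% and 5.43%. Of 62 under 30 kb, 2 fell and 10 rose, beside 2.34% and 15.2%. These counts were made after the values were seen and are a description.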
